A study of Mus musculus with 2 samples.

Results

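The serpin genes Serpinb9, Serpinb9b, Serpinb6a, Serpinb6b, Serpina3g and Serpina3f were described in T cells of mouse melanomas, that is 6 of the 31053 mouse genes in the count table and 6 of the 61 genes whose symbol starts with Serpin. They were chosen because an earlier look at these counts showed them in T cells, so their levels by lineage and beside Gzmb, the gene of granzyme B, are descriptions and carry no test. T cells were sorted on TCR-β from tumors of B16 melanoma cells and of B16 cells engineered to secrete IL-33 (B16–IL-33) on day 9 after inoculation into C57BL/6 mice. Cells of both tumors were labelled with hashtag antibodies and pooled, and from the pool came 1 library each of gene expression, hashtags and TCR. The number of mice behind the pool, and whether hashtags of a tumor mark different mice, is not given in the sources used here. Hashtags were summed by tumor, and each tumor was taken as 1 sample without a replicate. Cells of 1 pool are not replicates, and 95% intervals given in parentheses cover counting error only.

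Serpins are protease inhibitors that work as suicide substrates. The protease cuts an exposed loop of the inhibitor, and the cut loop folds into the body of the serpin and traps the enzyme. Serpins of clade B stay inside the cell, where several of them inhibit the granzymes and cathepsins that a killer cell stores in its granules and that could leak into its own cytosol. Serpinb9, also called SPI6, is the mouse inhibitor of granzyme B. Serpinb6b is an inhibitor of granzyme A, and Serpinb6a (SPI3) of cathepsin G. Serpina3g, also called Spi2A, belongs to clade A but acts inside the cell, where it inhibits cysteine cathepsins such as cathepsin B. Serpinb9b and Serpina3f are close paralogs of Serpinb9 and Serpina3g.

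The genes lie in 2 clusters of serpins. In GENCODE vM21 on GRCm38, Serpina3f (ENSMUSG00000066363, chr12:104214544-104221129) and Serpina3g (ENSMUSG00000041481, chr12:104236245-104241939) stand on the plus strand, 15115 bases apart. Serpinb6b (ENSMUSG00000042842, chr13:32965209-32979067), Serpinb9 (ENSMUSG00000045827, chr13:33003250-33017957) and Serpinb9b (ENSMUSG00000021403, chr13:33027416-33041884) follow each other on the plus strand of chromosome 13, and Serpinb6a (ENSMUSG00000060147, chr13:33917918-34002794) lies 876033 bases further on the minus strand. Each paralog pair was close in its longest coding sequence, with 86.5% identical bases for Serpinb9 and Serpinb9b, 86.4% for Serpinb6a and Serpinb6b and 87.4% for Serpina3g and Serpina3f, whereas Serpinb9 and Serpinb6b had 70.8%. The share of all 50-base words of a gene's transcripts that also occur in another gene was 25.1% for Serpinb6a, 15.5% for Serpina3g, 10.6% for Serpina3f, 5.38% for Serpinb9b, 2.92% for Serpinb6b and 0.378% for Serpinb9. Serpinb6a shared most words with its neighbour Nqo2, Serpina3g with Serpina3h and Serpina3f with Serpina3g. Reads of these 3 genes could be lost or split between genes, so by this measure their levels are the least certain. Words were counted on either strand, so overlap with a gene on the opposite strand is included, and its effect on reads was not tested.

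Sequence before the start sites is shown because both Serpina3 genes, whose levels were highest in Treg cells, hold the same short motif. Each stretch has 80 bases and comes from RefSeq on GRCm38.p6, read 5′ to 3′ on the strand of the gene. Capitals mark TTCNNNGAA, the palindromic site of STAT factors, or, on either strand, a pair of GAAA repeats with 2 bases between them, an interferon response element. Serpina3g is shown from chr12:104236067-104236146, Serpina3f from chr12:104214376-104214455, Serpinb9 from chr13:33004461-33004540, Serpinb9b from chr13:33027334-33027413 and Serpinb6a, in which the capitals of both motifs overlap, from chr13:34002832-34002911.
Serpina3g: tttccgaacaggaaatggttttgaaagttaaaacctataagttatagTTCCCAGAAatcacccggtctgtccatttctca
Serpina3f: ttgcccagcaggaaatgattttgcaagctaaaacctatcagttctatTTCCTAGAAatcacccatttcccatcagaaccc
Serpinb9: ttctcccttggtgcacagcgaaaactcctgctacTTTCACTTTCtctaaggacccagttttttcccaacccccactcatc
Serpinb9b: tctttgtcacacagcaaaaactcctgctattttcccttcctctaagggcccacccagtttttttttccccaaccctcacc
Serpinb6a: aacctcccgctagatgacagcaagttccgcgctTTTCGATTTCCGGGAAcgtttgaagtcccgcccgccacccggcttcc
The STAT site stood 33 bases before the RefSeq start of Serpina3g and, for Serpina3f, 121 and 210 bases before its 2 RefSeq starts, and 8.30% of all 32851 RefSeq promoter windows of 300 bases hold such a site. The printed stretches of the 2 genes were 84.5% identical over 71 aligned bases. Serpinb6a also held STAT sites, 77 bases before and 21 bases after a RefSeq start. The interferon response element, found in 3.44% of windows, stood 84 bases before that start of Serpinb6a and 46 bases before the start of Serpinb9. The stretch of Serpinb9b aligned to that of Serpinb9 at 87.5% identity over 72 bases but held no match. A match is a run of letters and says nothing of binding.

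Of 14035 barcodes with 43420305 mouse UMIs (unique molecular identifiers, each 1 captured RNA molecule), 9078 cells with 200 to 2500 detected genes and under 5% mitochondrial UMIs were kept, with a median of 2467 UMIs. Lineages were taken from each cell's own UMIs: 1259 CD8+ cells had more Cd8a and Cd8b1 than Cd4 and Foxp3 UMIs, 2610 Treg cells had Foxp3 and no CD8 UMI, 1769 Tconv cells had Cd4 without Foxp3 or CD8 UMIs, and 81 NKT cells had Zbtb16 without Foxp3 or CD8 UMIs, 21 of them also counted as Tconv. Another 3380 cells had no lineage. Median depths were 3464 UMIs in CD8+, 2780 in Treg, 2498 in Tconv and 2939 in NKT cells, so shares of cells were also taken after drawing 1500 UMIs from each cell (thinning), with shallower cells left out. The NKT label held in part: of 36 such cells with a productive alpha chain, 20 carried the invariant TRAV11–TRAJ18 chain, against 1 of 707 CD8+ and 4 of 1488 Treg cells. Cells without CD3 or lineage UMIs but with at least 3 UMIs of macrophage genes (166 myeloid-marked cells, median 3821 UMIs) served as a background for free RNA.

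The serpins held by the T cells differed by lineage. A UMI of at least 1 of the 6 genes was found in 56.4% of CD8+, 43.9% of Treg, 37.3% of Tconv and 40.7% of NKT cells, or in 37.2%, 29.6%, 24.1% and 25.3% after thinning. The 6 genes together reached 426 CPM (UMIs of a gene per 1000000 mouse UMIs of the same cells) in CD8+, 290.3 CPM in Treg, 253 CPM in Tconv and 280.3 CPM in NKT cells. Serpinb9, Serpinb9b and Serpinb6b were lowest in Treg cells, whereas Serpina3g, Serpina3f and Serpinb6a were highest there. CPM values are compared below between groups of cells and not between genes.

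Serpinb9, the granzyme B inhibitor, stood at 63.5 CPM (56.8 to 70.9) in CD8+ cells from 321 UMIs, 38.2 CPM (33 to 44.1) in Tconv from 192 UMIs and 20 CPM (17.0 to 23.3) in Treg cells from 165 UMIs. NKT cells had 71.9 CPM (43.9 to 111) from 20 UMIs. NKT and CD8+ cells did not differ beyond counting error, and the other steps of the order NKT, CD8+, Tconv, Treg did. A UMI was found in 16.9% of CD8+, 8.03% of Tconv and 5.36% of Treg cells, and after thinning in 7.65% (6.18 to 9.33), 5.11% (4.04 to 6.38) and 2.65% (2.01 to 3.41). Myeloid-marked cells held 2 Serpinb9 UMIs, 3.0 CPM (0.363 to 10.8), so the level in each T cell lineage lay above that background.

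Serpinb6b, the granzyme A inhibitor, followed the same order among the 3 larger lineages. It reached 189.6 CPM (178 to 202) in CD8+ cells, 105 CPM (96.4 to 115) in Tconv and 60.5 CPM (55.3 to 66.1) in Treg cells. NKT cells stood between, at 155 CPM (112 to 208), and their interval overlapped that of CD8+ cells. After thinning, 18.5% (16.3 to 20.9) of CD8+, 10.7% (9.16 to 12.4) of Tconv and 7.29% (6.22 to 8.47) of Treg cells had a UMI, against 32.2%, 15.9% and 12.7% before. The background was low, with 1 UMI in 166 myeloid-marked cells (1.5 CPM).

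Serpinb9b was found mostly in CD8+ cells. CD8+ cells held 94 of its 119 UMIs, 18.6 CPM (15.0 to 22.8), whereas Tconv cells held 6 UMIs, 1.20 CPM (0.439 to 2.60), and Treg cells 3 UMIs, 0.363 CPM (0.0749 to 1.06). NKT cells had 2 UMIs and myeloid-marked cells 0 UMIs. The CD8+ UMIs came from 34 cells, and 53 of them (56.4%) from the 5 highest cells, the top one with 31 UMIs. For comparison, the 5 highest CD8+ cells held 8.10% of Serpinb9 and 6.89% of Serpinb6b UMIs. The 24 Serpinb9b+ CD8+ cells with a clonotype belonged to 23 clones.

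Serpinb6a, the cathepsin G inhibitor, was near the same level in Treg and CD8+ cells. It stood at 67.7 CPM (62.2 to 73.5) in Treg, 63.7 CPM (57.0 to 71.1) in CD8+ and 43.4 CPM (37.8 to 49.6) in Tconv cells, and at 21.6 CPM (7.91 to 46.9) in NKT cells from 6 UMIs. Treg and CD8+ cells did not differ beyond counting error, with a ratio of CD8+ to Treg of 0.942 (0.819 to 1.08). Myeloid-marked cells had 28.5 CPM (17.2 to 44.5) and 10 melanoma-marked cells 7 UMIs, so this gene was not limited to T cells. After thinning, it was found in 9.10% (7.91 to 10.4) of Treg, 6.95% (5.55 to 8.58) of CD8+, 4.84% (3.79 to 6.07) of Tconv and 3.88% (1.27 to 8.81) of myeloid-marked cells, against 15.4%, 17.5%, 10.2% and 7.23% before.

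Serpina3g, the cathepsin B inhibitor, was highest in Treg cells. It reached 129 CPM (121 to 137) there, 82.7 CPM (75.0 to 91.1) in CD8+ cells, 58.2 CPM (51.7 to 65.2) in Tconv and 25.2 CPM (10.1 to 51.8) in NKT cells. After thinning, 14.2% (12.7 to 15.7) of Treg, 10.9% (9.12 to 12.8) of CD8+ and 6.70% (5.47 to 8.12) of Tconv cells had a UMI, against 23.1%, 21.3% and 11.9% before. Myeloid-marked cells held 31 UMIs in 10 cells, 46.5 CPM (31.6 to 66.0), a level near that of Tconv cells, and 5.43% (2.21 to 10.9) of them had a UMI after thinning. The thinned Tconv share was within the interval of these myeloid-marked cells. The interval of CD8+ cells overlapped it, and that of Treg cells lay above it. The myeloid UMIs were concentrated in these 10 cells, with up to 9 UMIs in 1 cell. Whether they are free RNA or expression by those cells was not tested, so the overlap does not set a background for T cells. Serpina3f, from fewer UMIs, stood at 13.1 CPM (10.7 to 15.8) in Treg, 7.32 CPM (5.16 to 10.1) in CD8+ and 6.37 CPM (4.36 to 9.0) in Tconv cells, with 1 UMI in myeloid-marked cells. In 81 NKT cells 0 UMIs were found, and the counting interval allows up to 13.3 CPM.

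**Figure D1:**
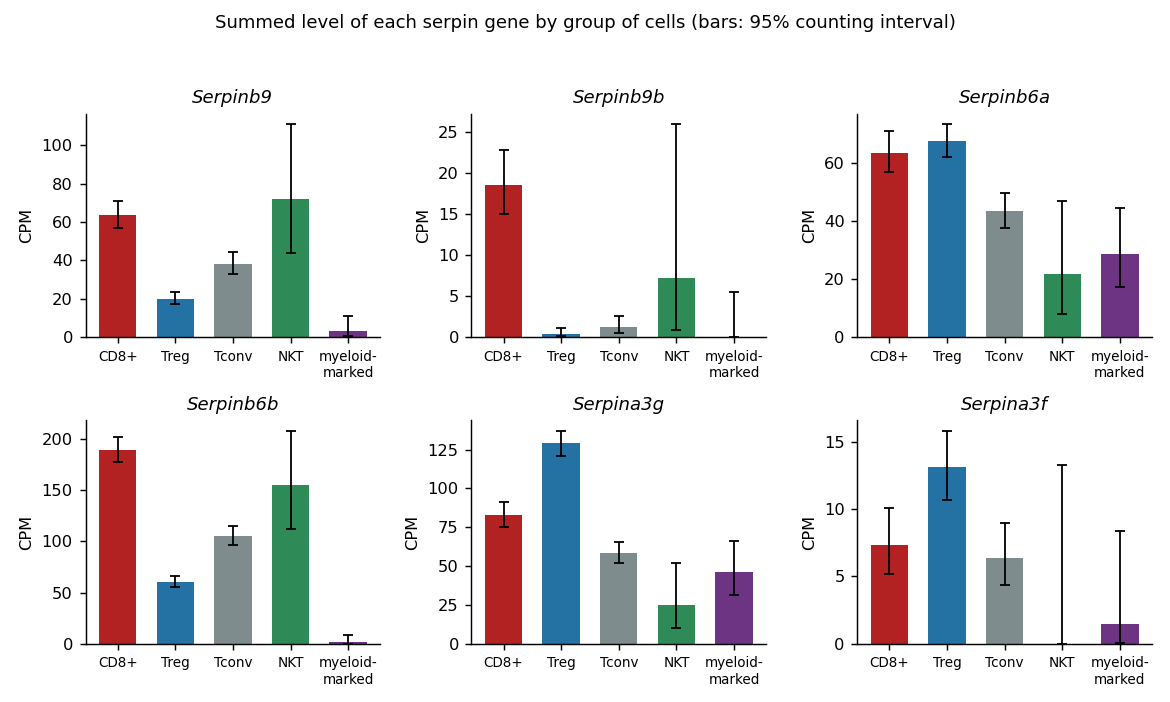
Summed level of each gene in CPM in CD8+, Treg, Tconv, NKT and myeloid-marked cells, 1 panel per gene with its own axis; error bars are 95% counting intervals of 1 pooled library. Serpinb9 and Serpinb6b were lowest among T cells in Treg cells (20 and 60.5 CPM), and Serpina3g highest there (129 CPM).

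Ratios between lineages put these orders side by side. From CD8+ to Treg cells, Serpinb9 had a ratio of 3.18 (2.63 to 3.86), Serpinb6b of 3.13 (2.81 to 3.50) and Serpinb9b of 51.2 (17.0 to 253), the last against only 3 UMIs. Serpina3g stood at 0.643 (0.572 to 0.720) and Serpina3f at 0.560 (0.375 to 0.821) in the same comparison. Of the 4 members with at least 200 UMIs in these lineages, 2 were at least 2-fold higher in CD8+ cells, where 1.87% of all 5978 genes with that depth were, and 0 were at least 2-fold lower, where 7.81% were. From Treg to Tconv cells, Serpina3g had a ratio of 2.21 (1.94 to 2.53), Serpina3f of 2.05 (1.37 to 3.15), Serpinb6a of 1.56 (1.33 to 1.83), Serpinb6b of 0.575 (0.508 to 0.651) and Serpinb9 of 0.522 (0.421 to 0.646). Of the 4 members deep enough, 1 was at least 2-fold higher in Treg cells, against 3.16% of genes, and 0 were at least 2-fold lower, against 1.31%. From CD8+ to Tconv cells, Serpinb6b had a ratio of 1.80 (1.62 to 2.01), Serpinb9 of 1.66 (1.38 to 2.0), Serpinb6a of 1.47 (1.23 to 1.75) and Serpina3g of 1.42 (1.22 to 1.66). None of these 4 reached 2-fold in either direction, which 1.34% of genes did upward and 1.95% downward, and Serpinb9b, below that depth, had a ratio of 15.6 (6.89 to 43.5), or 6.85 (2.89 to 19.7) without its 5 richest CD8+ cells. These comparisons share their cells and the choice of genes rested on them, so nothing is read from the counts.

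**Figure D2:**
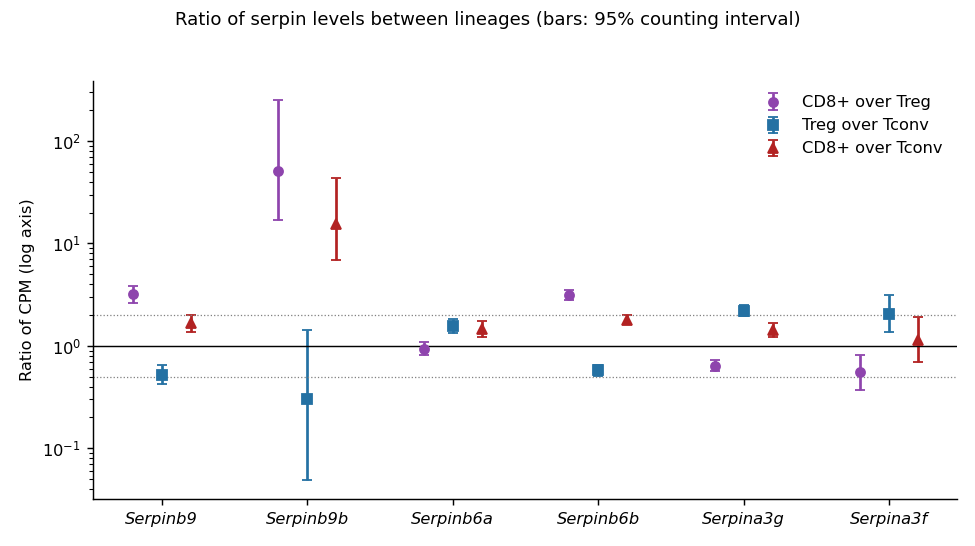
Ratio of CPM between lineages for each gene on a log axis, with 95% counting intervals; the dotted lines mark ratios of 2 and 0.5. Serpinb9, Serpinb9b and Serpinb6b lay above 1 from CD8+ to Treg cells (3.18, 51.2 and 3.13), and Serpina3g and Serpina3f below (0.643 and 0.560).

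Genes of granzymes, perforin and cathepsins, some of them named above as targets of these serpins, did not all follow the same order. The lists also held genes not named above as targets, and the gene of cathepsin G was not in them. Of 10 genes of granzymes and perforin, 6 had at least 200 UMIs in CD8+ and Tconv cells together, and all 6 were at least 2-fold higher in CD8+ cells, where 1.34% of all genes were, with a median ratio of 8.43 beside 0.926 over all genes. From Treg to Tconv cells they were split, since of 5 deep enough 2 were at least 2-fold higher in Treg cells, against 3.16% of genes, and 3 at least 2-fold lower, against 1.31%, with a median ratio of 0.433. Gzma, the gene of granzyme A, stood at 847 CPM in CD8+, 62.9 CPM in Tconv and 27.2 CPM in Treg cells, the order of Serpinb6b. Gzmb, in contrast, stood at 1318 CPM in Treg, 1050 CPM in CD8+ and 392 CPM in Tconv cells, so Serpinb9 was lowest in the lineage where Gzmb was highest. The 9 cathepsin genes had a median Treg to Tconv ratio of 1.21, beside 1.08 over all genes, and 2 of them were at least 2-fold higher in Treg cells, against 3.16% of genes. Ctsb, the gene of cathepsin B, stood at 368 CPM in Treg, 264 CPM in Tconv and 194 CPM in CD8+ cells. It reached 2953 CPM in myeloid-marked cells, and how far free myeloid RNA contributes to its level in T cells was not tested.

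Within CD8+ cells, the levels of all 6 members were higher where Gzmb was found. A Gzmb UMI was found in 53.1% of CD8+, 59.4% of Treg and 27.3% of Tconv cells, or in 42.1%, 49.9% and 19.1% after thinning. Gzmb+ CD8+ cells had 81.4 CPM of Serpinb9 and Gzmb- CD8+ cells 38.0 CPM, a ratio of 2.14 (1.66 to 2.80). Serpinb6b stood at 248 and 107 CPM, a ratio of 2.32 (1.99 to 2.71). Serpinb9b had 92 UMIs in Gzmb+ and 2 UMIs in Gzmb- cells, a ratio of 32.2 (8.66 to 269.8). Ratios were smaller for Serpinb6a at 1.58 (1.24 to 2.02) and Serpina3g at 1.52 (1.23 to 1.88). Of the 4 members with at least 200 UMIs, 2 were at least 2-fold higher in Gzmb+ CD8+ cells, against 1.95% of 2824 genes.

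In Treg cells, more of which held Gzmb, the levels of Serpinb9 and Serpinb6b did not differ by Gzmb beyond counting error. Serpinb9 stood at 20.9 CPM in Gzmb+ and 18.4 CPM in Gzmb- Treg cells, a ratio of 1.14 (0.816 to 1.60), and Serpinb6b at 63.3 and 55.8 CPM, a ratio of 1.13 (0.939 to 1.37). Serpina3g had a ratio of 1.06 (0.937 to 1.21) and Serpinb6a of 1.15 (0.964 to 1.38). Of 3 members with 200 UMIs, 0 reached 2-fold, as did 0.237% of 4647 genes. The ratio in CD8+ cells divided by that in Treg cells was 1.89 (1.23 to 2.89) for Serpinb9 and 2.05 (1.60 to 2.61) for Serpinb6b, so both differences exceeded counting error. Tconv cells resembled CD8+ cells for Serpinb9, at 58.2 and 30.6 CPM with a ratio of 1.90 (1.41 to 2.55), and for Serpina3g, with 1.60 (1.25 to 2.03). They resembled Treg cells for Serpinb6b, with 1.27 (1.05 to 1.53). After thinning, the Tconv shares differed by 2.60 percentage points (-0.469 to 6.48) for Serpinb9, -0.254 points (-3.30 to 3.58) for Serpina3g and 3.72 points (-0.536 to 8.63) for Serpinb6b, and each interval held 0. Of 3 members with 200 UMIs in Tconv cells, 0 reached 2-fold, where 2.04% of genes did.

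The cells with Gzmb were deeper than those without, at medians of 3908 and 3051 UMIs in CD8+ and 3018 and 2442 UMIs in Treg cells, so the shares were compared after thinning. In CD8+ cells, 9.92% (7.40 to 12.9) of Gzmb+ and 6.0% (4.32 to 8.08) of Gzmb- cells had a Serpinb9 UMI, a difference of 3.92 percentage points (0.657 to 7.37). For Serpinb6b the shares were 23.8% (20 to 27.8) and 14.7% (12.1 to 17.6), a difference of 9.07 points. Over 20 draws the difference ranged from 2.75 to 7.09 points for Serpinb9 and from 8.20 to 16.3 points for Serpinb6b. The interval lay above 0 in 19 draws for Serpinb9 and in all 20 draws for Serpinb6b. With cells thinned to 1000 UMIs, the difference was 1.67 points (-0.944 to 4.60) for Serpinb9 and 2.27 points (-1.04 to 5.84) for Serpina3g, against 5.15 points at 1500 UMIs, so both intervals then held 0, whereas Serpinb6b stood at 8.27 points (3.92 to 12.8). The other 4 members were less stable, since the interval lay above 0 in 14 draws for Serpina3g, 12 for Serpinb9b, 4 for Serpina3f and 3 for Serpinb6a. In Treg cells, the difference of Serpinb9 was -0.457 points in the draw reported and ranged from -0.976 to 1.29 points over the draws, and that of Serpinb6b ranged from -0.950 to 1.59 points. No draw put either interval off 0. For the other members in Treg cells, the interval lay above 0 in 4 draws for Serpina3g and 2 for Serpinb6a, and in 0 for Serpinb9b and Serpina3f. Without cells that had at least 2 productive beta chains, the Treg difference was 4.28 points (1.15 to 7.41) for Serpina3g, 3.22 points (0.634 to 5.82) for Serpinb6a and -1.20 points (-2.45 to -0.0106) for Serpina3f, so in Treg cells these 3 depended on the cells and the draw used.

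Cells in the same class of Gzmb UMIs were compared next. Among thinned CD8+ cells, the share with Serpinb9 was 6.0% at 0 Gzmb UMIs, 7.88% at 1, 8.21% at 2 to 4 and 16.1% (9.81 to 24.2) at 5 or more, from 667, 165, 207 and 112 cells. The corresponding shares of Treg cells were 2.87%, 2.34%, 1.44% and 3.79% (1.97 to 6.52), from 1079, 342, 417 and 317 cells. At 5 or more Gzmb UMIs the lineages differed by 12.3 percentage points (5.46 to 20.6) in Serpinb9 and, with shares of 25.9% and 6.94%, by 19.0 points (10.4 to 28.4) in Serpinb6b. Serpinb6a and Serpina3g did not differ beyond counting error in this class, by -2.06 points (-7.83 to 5.29) and 2.04 points (-4.94 to 10.4). The gap was not limited to this class. At 0 Gzmb UMIs it was 3.12 points for Serpinb9 and 7.46 points (4.35 to 10.7) for Serpinb6b. For Serpinb6b it stood at 22.3 points (15.6 to 29.3) at 2 to 4 UMIs. For both genes the interval lay above 0 in each class. Serpina3g differed by -5.39 points at 0 Gzmb UMIs, with an interval below 0. With equal UMI totals, Treg cells thus held Serpinb9 and Serpinb6b less often than CD8+ cells did, whether rich in Gzmb or without it, in 1 pool without replicates.

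**Figure D3:**
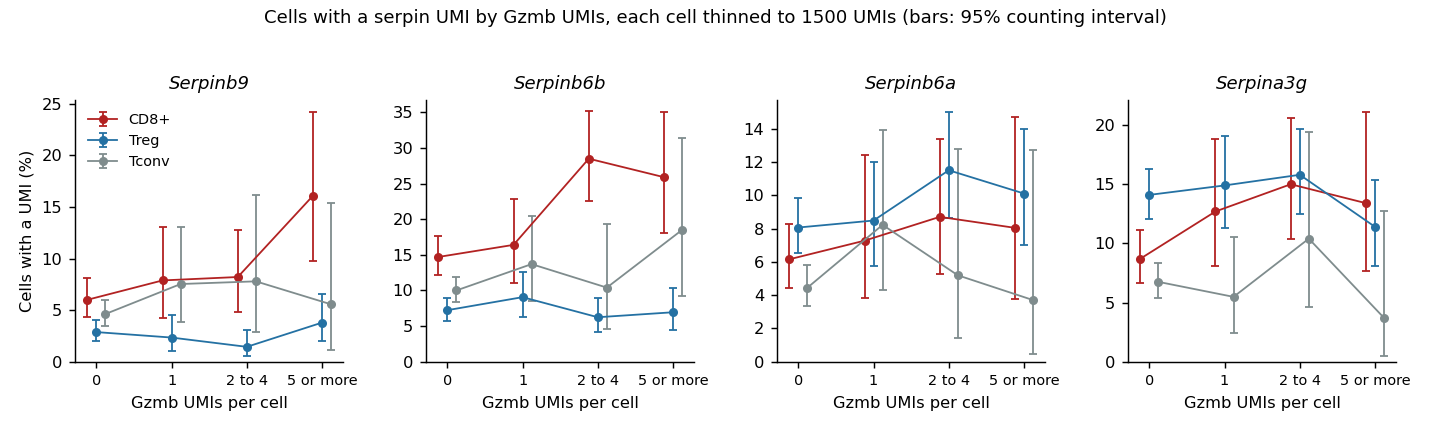
Percentage of cells with a UMI of Serpinb9, Serpinb6b, Serpinb6a or Serpina3g by the number of Gzmb UMIs in the cell, for CD8+, Treg and Tconv cells thinned to 1500 UMIs; error bars are 95% counting intervals. The Serpinb9 share reached 16.1% in CD8+ cells with 5 or more Gzmb UMIs and stayed at 1.44% to 3.79% in Treg cells.

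Other genes of killing went with Serpinb9 and Serpinb6b in CD8+ cells. Cells with Prf1, the gene of perforin, had 105 CPM of Serpinb9 against 45.1 CPM in cells without, a ratio of 2.32 (1.85 to 2.91), and 294 against 143 CPM of Serpinb6b, a ratio of 2.06 (1.81 to 2.35), where 0.673% of genes were at least 2-fold higher. Tcf7, a transcription factor gene of naive and memory cells, went the other way. Serpinb9 stood at 33.4 CPM in Tcf7+ and 81.4 CPM in Tcf7- CD8+ cells, a ratio of 0.411 (0.307 to 0.543), where 2.23% of genes were at least 2-fold lower. With Gzmb held fixed Serpinb9 was lower in Tcf7+ cells, and with Tcf7 held fixed it was higher in Gzmb+ cells. It was at 91.7 CPM (79.6 to 105) in Tcf7- Gzmb+ cells, 56.0 CPM (41.7 to 73.6) in Tcf7- Gzmb- cells, 49.0 CPM (34.1 to 68.1) in Tcf7+ Gzmb+ cells and 23.9 CPM (15.9 to 34.6) in Tcf7+ Gzmb- cells.

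Genes of inhibitory receptors went with Serpinb6a, Serpinb6b and Serpinb9b in CD8+ cells, and with smaller ratios also with Serpinb9 and in part Serpina3g. Serpinb9 had ratios of 1.67 (1.33 to 2.09) by Pdcd1, 1.64 (1.28 to 2.09) by Havcr2 and 1.45 (1.15 to 1.81) by Lag3. Serpina3g had a ratio of 1.37 (1.12 to 1.66) by Pdcd1 and was also higher with Lag3, though its thinned share was not. By Havcr2 its ratio was 1.21 (0.954 to 1.51). Serpinb6a stood at 96.7 CPM in Lag3+ and 44.0 CPM in Lag3- CD8+ cells, a ratio of 2.20 (1.75 to 2.76), against 0.885% of genes at least 2-fold higher. The Serpinb6a share in thinned cells was 12.1% and 6.04%. By Pdcd1 the ratio was 1.97 (1.57 to 2.47) for Serpinb6a, with thinned shares of 8.38% and 6.69%, and 1.95 (1.71 to 2.22) for Serpinb6b, with thinned shares of 27.9% and 16.8%. Serpinb9b had 79 UMIs in Havcr2+ and 15 UMIs in Havcr2- CD8+ cells, a ratio of 19.9 (11.4 to 37.3), and 87 and 7 UMIs by Prf1, a ratio of 27.6 (12.9 to 70.8). By Pdcd1 its CPM ratio was 6.99 (4.14 to 12.4), but its thinned shares were 0.559% with and 0.823% without Pdcd1. Without the 5 cells richest in Serpinb9b, the ratio was 6.85 (3.50 to 13.9) by Havcr2, 11.1 (4.85 to 29.7) by Prf1 and 13.9 (3.59 to 118) by Gzmb. The ratio by Pdcd1 was not recomputed without these cells. An apparent ratio of 4.50 by Ccr7 fell to 0.975 (0.365 to 2.24) without the same cells.

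The 34 CD8+ cells with Serpinb9b had the profile of granzyme-rich cells. Of these, 32 (94.1%, 80.3 to 99.3) had Gzmb, 29 (85.3%) Prf1, 22 (64.7%) Gzmc and 27 (79.4%) Tnfrsf9, the gene of the costimulatory receptor 4-1BB. Among the other 1225 CD8+ cells the shares were 51.9%, 22.1%, 7.02% and 30.1%. Serpinb9b+ cells were deeper, at a median of 7058 against 3391 UMIs, and these shares were not thinned. On the scale of CPM, which is relative to depth, Gzmc stood at 1471 and 128 CPM, Gzmb at 2633 and 973 CPM, Serpinb9 at 159 and 58.9 CPM and Serpinb6b at 465 and 176 CPM, whereas Gzma was at 667 and 855 CPM and Gzmk at 138 and 183 CPM.

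In Treg cells, Serpina3g was low beside Il1rl1 and high beside Nkg7. It stood at 56.8 CPM in Treg cells with Il1rl1, the gene of the IL-33 receptor, and at 147 CPM in those without, a ratio of 0.387 (0.310 to 0.480), where 0.516% of genes were at least 2-fold lower. Serpina3f had 5.50 and 14.9 CPM, a ratio of 0.368 (0.163 to 0.727). Depth was alike, at medians of 2850 and 2770 UMIs, and after thinning 6.51% and 15.2% of cells had a Serpina3g UMI. Treg cells with Nkg7, a granule membrane gene, had 184 CPM of Serpina3g against 88.4 CPM, a ratio of 2.09 (1.84 to 2.36), which 0.258% of genes reached. Both genes held within each other: Serpina3g was at 196 CPM (180.4 to 212) in Il1rl1- Nkg7+, 103 CPM (92.5 to 114) in Il1rl1- Nkg7-, 84.7 CPM (57.2 to 121) in Il1rl1+ Nkg7+ and 49.1 CPM (37.7 to 62.8) in Il1rl1+ Nkg7- Treg cells. Serpinb6a over the same 4 groups was at 82.0, 59.4, 81.9 and 51.4 CPM, so it followed Nkg7 and not Il1rl1.

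Serpinb6b in Treg cells was high in few cells. Its CPM was higher with Tcf7, at 124 against 51.5 CPM with a ratio of 2.40 (1.95 to 2.94) where 0.624% of genes passed 2-fold, with Ccr7 at 2.30 (1.83 to 2.86) against 0.387%, and with Ifng at 2.21 (1.70 to 2.84) against 0.172%. Without the 5 Treg cells richest in Serpinb6b, an alternative chosen after seeing the data, these ratios were 1.59 (1.23 to 2.03), 1.30 (0.958 to 1.73) and 1.32 (0.924 to 1.83), and after thinning 8.06% of Tcf7+ and 7.24% of Tcf7- Treg cells had a UMI. The corresponding ratio by Tcf7 in CD8+ cells was below 1, and the ratio in CD8+ cells divided by that in Treg cells was 0.261 (0.203 to 0.336) with all cells kept.

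In Tconv cells, Serpinb6b went with Pdcd1, the gene of the receptor PD-1. Pdcd1+ cells had 216 CPM and Pdcd1- cells 78.7 CPM, a ratio of 2.75 (2.30 to 3.28), or 2.25 (1.85 to 2.73) without the 5 richest cells, and 0.226% of genes were at least 2-fold higher. After thinning, 24.1% and 9.26% of cells had a UMI. By Havcr2 and Lag3, also genes of inhibitory receptors, the Serpinb6b ratio lay below 1. It was 0.483 (0.269 to 0.805) by Havcr2, where 3.20% of genes were at least 2-fold lower, and 0.777 (0.597 to 0.998) by Lag3. Thinned shares were 3.12% of 32 cells with and 10.9% without Havcr2, and 5.63% with and 11.3% without Lag3. Cells with Areg, the gene of amphiregulin, had less Serpinb6b, at 36.9 against 116 CPM with a ratio of 0.318 (0.204 to 0.475), where 0.776% of genes were at least 2-fold lower. Serpinb9 stood at 57.8 CPM in Nkg7+ and 24.8 CPM in Nkg7- Tconv cells, a ratio of 2.33 (1.73 to 3.16). Among genes with at least 200 UMIs, a depth that Serpinb9 with 192 UMIs did not reach, 0.324% were at least 2-fold higher. Serpina3g was lower in Ccr7+ Tconv cells, at 23.3 against 66.7 CPM with a ratio of 0.350 (0.218 to 0.537), as were 5.31% of genes by at least 2-fold, and higher in Lag3+ cells, at 101 against 49.4 CPM with a ratio of 2.05 (1.58 to 2.66), as were 2.88% of genes.

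Cells were also grouped by their summed UMIs of 7 genes induced by interferon-γ, among them Gbp2, Igtp and Irf1. The share of thinned Tconv cells with Serpina3g was 3.02% (1.80 to 4.73) at 0 UMIs of the 7 genes, 8.05% (6.07 to 10.4) at 1 to 2 and 13.2% (8.86 to 18.6) at 3 or more. In Treg cells it was 11.6% (9.18 to 14.4), 13.6% (11.5 to 15.9) and 17.8% (14.8 to 21.2). In CD8+ cells it was 10.4%, 11.6% and 9.71% (4.75 to 17.1), values within counting error of each other. Serpinb9, whose printed sequence holds the interferon response element, was not more frequent in the higher classes of this list. Its shares over the same classes were 5.54%, 4.95% and 4.39% in Tconv, 2.90%, 2.62% and 2.42% in Treg and 7.94%, 7.48% and 6.80% in CD8+ cells. Serpinb6a, which holds the element too, was found in 4.70%, 5.26% and 3.90% of Tconv, 7.89%, 9.21% and 10.2% of Treg and 8.29%, 5.20% and 7.77% of CD8+ cells. Grouped by 8 genes induced by type I interferon, such as Isg15 and Ifit1, Treg cells had Serpina3g in 14.3%, 13.7% and 14.7% of cells, Tconv cells in 5.75%, 7.01% and 10.5% (6.23 to 16.3), and CD8+ cells in 10.0%, 10.6% and 14.8% (9.64 to 21.4). Over the same classes Serpinb9 was found in 2.14%, 2.65% and 4.19% (2.31 to 6.93) of Treg, 4.62%, 5.15% and 7.41% (3.89 to 12.6) of Tconv and 7.01%, 10.1% and 3.87% (1.43 to 8.23) of CD8+ cells. By these type I genes, the intervals of the lowest and the highest class overlapped for Serpina3g and Serpinb9 in each lineage.

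**Figure D4:**
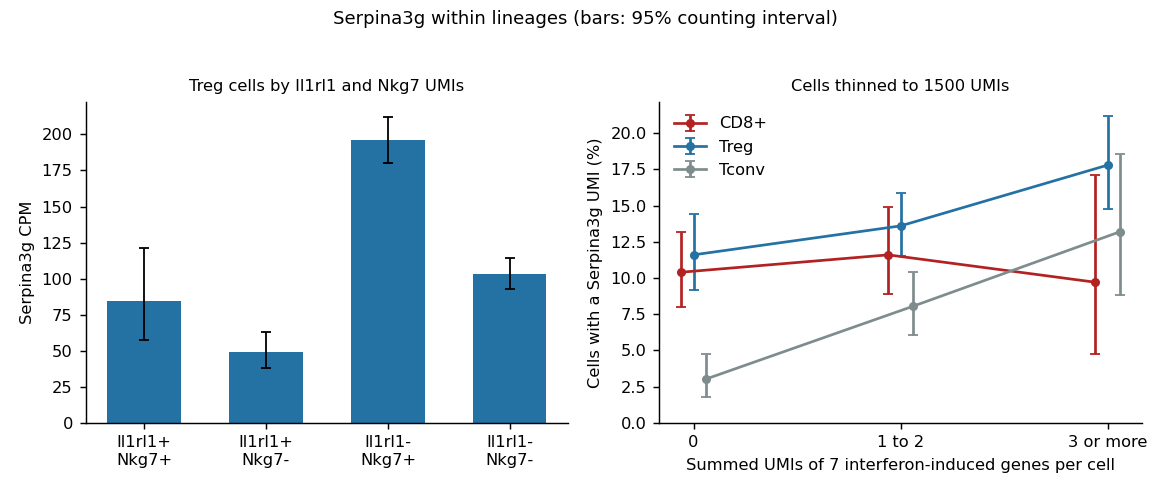
Left, Serpina3g in CPM in Treg cells with (+) or without (-) a UMI of Il1rl1 and Nkg7; right, percentage of CD8+, Treg and Tconv cells with a Serpina3g UMI by summed UMIs of 7 interferon-induced genes after thinning to 1500 UMIs. Bars are 95% counting intervals; the level ran from 49.1 CPM in Il1rl1+ Nkg7- to 196 CPM in Il1rl1- Nkg7+ Treg cells, and the Tconv share from 3.02% to 13.2%.

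Some pairs of members were found in the same cells more often than their separate shares predict. After thinning, Serpinb9 and Serpinb6b shared 27 CD8+ cells where their shares predict 16.3, a ratio of 1.66 (1.09 to 2.41), 15 Treg cells where 4.15 are predicted, a ratio of 3.61 (2.02 to 5.96), and 28 Tconv cells where 7.93 are predicted, a ratio of 3.53 (2.35 to 5.11). Serpina3g and Serpina3f shared 13 Treg cells against 4.95 predicted, a ratio of 2.62 (1.40 to 4.49), and 5 Tconv cells against 1.07, a ratio of 4.66 (1.51 to 10.9), but 1 CD8+ cell against 1.19, a ratio of 0.837 (0.0212 to 4.66). These 2 genes share 50-base words, so part of the second pair may be 1 transcript counted under both names, which was not tested. Serpinb6a did not go with its paralog Serpinb6b, with ratios of 1.01 (0.567 to 1.67), 1.26 (0.747 to 1.99) and 0.667 (0.217 to 1.56) in CD8+, Treg and Tconv cells.

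Cycling cells, those with at least 2 UMIs of 5 genes of the cell cycle such as Mki67 and Top2a, were set beside Gzmb+ cells that were not cycling. In CD8+ cells Serpinb9 stood at 51.0 CPM (37.8 to 67.5) in 151 cycling and 87.8 CPM (76.0 to 101) in 555 Gzmb+ cells, and Serpinb6b at 224 and 245 CPM. Serpinb6a was at 92.7 CPM (74.4 to 114) and 68.6 CPM (58.1 to 80.3), and Serpinb9b at 55.2 and 17.5 CPM. The Serpinb9b level in cycling CD8+ cells rested on 53 UMIs in 12 cells, and without the 5 richest CD8+ cells it was 15.0 CPM beside 6.63 CPM in all CD8+ cells not cycling, a ratio of 2.26 (1.10 to 4.47). In Treg cells Serpina3g was at 159 CPM (137 to 184) in 235 cycling and 129.8 CPM (119 to 141) in 1401 Gzmb+ cells, and Serpinb9 at 11.2 CPM (5.97 to 19.2) and 22.2 CPM (18.0 to 27.0).

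Clonal expansion, read from the TCR library, went with some members. In CD8+ cells, 200 cells of 73 expanded clones (at least 2 cells each) had 92.9 CPM of Serpinb9 and 721 cells with a clonotype of their own 60.5 CPM, a ratio of 1.54 (1.18 to 1.98). Serpinb6b stood at 257 and 184 CPM, a ratio of 1.39 (1.20 to 1.62), and Serpinb9b at 52.2 and 7.52 CPM, from 50 and 24 UMIs with the 5 richest cells kept. Expanded Treg cells, 98 in 46 clones, had 188 CPM of Serpina3g against 131 CPM, a ratio of 1.44 (1.10 to 1.86), and 115 against 70.0 CPM of Serpinb6a, a ratio of 1.64 (1.15 to 2.28). No member with 200 UMIs reached 2-fold in either lineage, where 0.425% and 0.235% of genes were at least 2-fold higher.

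The tumor of origin could be read for few cells. A kept cell had a tumor if all its hashtag UMIs, usually 1, named the same tumor, which gave 796 B16 and 143 B16–IL-33 cells of the 8946 kept cells found in the hashtag library. Treg cells numbered 245 from B16 and 55 from B16–IL-33. Their Serpina3g levels were 159 CPM, with an interval of 135 to 187, and 121 CPM, with one of 76.1 to 184, a ratio of 0.762 (0.464 to 1.20). Serpinb6b stood at 69.1 and 33.1 CPM, a ratio of 0.480 (0.170 to 1.10). In CD8+ cells Serpinb9 had 16 UMIs in 103 B16 and 8 UMIs in 19 B16–IL-33 cells, a ratio of 2.45 (0.907 to 6.06), and Serpinb6b a ratio of 1.77 (0.953 to 3.14). Serpina3g in Tconv cells had 40 UMIs in 164 B16 and 0 UMIs in 17 B16–IL-33 cells, with an interval of the ratio that ended at 0.994. No member had 200 UMIs in Treg cells with a tumor, where 2.33% of genes were at least 2-fold higher in B16–IL-33. It was the 1 interval of the 18 by member and lineage that did not hold 1, from 17 cells of 1 tumor, so no difference between tumors is read from it.

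Within the family, these 6 genes held 90.2% of the 8604 serpin UMIs of kept cells. Of the 61 serpin genes 38 had 0 UMIs, and 17 genes outside the list had at least 1. Serpinb1a, an inhibitor of neutrophil-type proteases, was the only other serpin with at least 200 UMIs, and with 29.3 CPM in Tconv, 8.47 CPM in Treg and 6.14 CPM in CD8+ cells it followed an order that no member had. Serpine2 had 62 of its 89 UMIs in CD8+ cells, 12.3 CPM, the lineage of Serpinb9b, and Serpinb2 had 35 of its 68 UMIs in myeloid-marked cells. Both were named after their values were seen.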

How the data were processed

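The deposited gene expression matrix holds raw UMI counts per gene and barcode, which the authors made with Cell Ranger (3.1.0 in the matrix header, 6.1.1 in the submitters' processing notes, build mm10) on a combined human and mouse reference. The tool for the hashtag counts is not given in the sources used here. Only mouse genes were used. Cells with 200 to 2500 genes and under 5% mitochondrial UMIs were kept, after the study's methods, and lineages were set by the UMI rules in the text. The 21 cells with both Cd4 and Zbtb16 counted as Tconv and as NKT.

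CPM was the summed UMIs of a gene per 1000000 mouse UMIs of the same cells. Intervals at 95% were exact Poisson (CPM), Clopper-Pearson (shares), conditional binomial (ratios) and square-and-add (differences and ratios of ratios). PCR duplicates were removed by UMI, and intervals cover counting error only. With 1 pool there was no replicate, so no test was run. For each comparison, the share of genes with at least 200 UMIs in both groups together that passed 2-fold was computed. To compare shares, 1500 UMIs were drawn from each cell, and shallower cells were left out. No doublet caller was run, and an alternative left out the 428 kept cells with at least 2 productive beta chains. Scripts were tested on simulated data.

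Genes named in the text are the 6 members, other serpins with at least 200 UMIs, and genes of fixed lists of granzymes, cathepsins, interferon genes and partner genes. Results that rest on some listed genes are not reported here, among them the genes nearest to each member over groups of cells, and 1 gene was left out of an interferon list after the data were seen. The members and lists were chosen with earlier results of these data known. Alternatives changed the gene limit, the mitochondrial limit, the lineage rule, the Cd4 and Zbtb16 overlap, doublets, the normalization, the low gene filter and the thinning. Python 3.11.15, NumPy 2.4.6, SciPy 1.17.1, pandas 2.3.3, Biopython 1.88 and matplotlib 3.10.9 were used.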

Additional observations from a re-analysis of the deposited data

Results flagged for a closer look

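Barcodes over 2500 detected genes were outside every comparison above, and 278 of them met the CD8+ rule, with a median of 14536 UMIs. They held 348 UMIs of Serpinb9b in 56 cells (76.9 CPM, 69.0 to 85.4), 379 UMIs of Serpinb9 (83.7 CPM, 75.5 to 92.6) and 1279 UMIs of Serpinb6b (283 CPM, 267 to 298). These values were singled out because they are a signal in data not used above, and the 3 counts exceed those of the 1259 kept CD8+ cells for Serpinb9b (94), Serpinb9 (321) and Serpinb6b (958). The 224 barcodes over the limit that met the Treg rule had 0 UMIs of Serpinb9b and 12.1 CPM of Serpinb9. Among the CD8+ barcodes over the limit, 57.2% had Mki67 and 15.8% at least 2 productive beta chains, against 9.69% and 6.75% of kept CD8+ cells. The part of cycling and of doublets in these values was not tested.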

How the results depend on the processing

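Of 204 values of 24 results recomputed under alternatives, 178 stayed within the counting interval of the value reported and 26 moved out of it. No value whose interval lay off no difference turned direction, whereas results whose intervals held no difference did: the Treg share difference of Serpinb9 and Serpinb6a (values below), of Serpinb6b (0.113 to -0.656 points at a mitochondrial limit of 10%) and of Serpina3f (-0.274 to 0.104 points with lineages from 2 UMIs), and the CD8+ to Tconv ratio of Serpina3f (1.15, and 0.980 with no upper gene limit). Intervals came to hold no difference for Serpinb9 (1.67 points) and Serpina3g (2.27 points) in CD8+ cells thinned to 1000 UMIs, for Serpinb6a from CD8+ to Tconv cells with lineages from 2 UMIs (1.24, 0.995 to 1.55) and for Serpina3f from Treg to Tconv cells on thinned UMIs per cell (1.72, 0.945 to 3.28). With no upper gene limit, the CD8+ to Tconv ratio was 2.08 for Serpinb9, 44.0 for Serpinb9b, 1.95 for Serpinb6a and 2.39 for Serpinb6b, and the Gzmb share difference in CD8+ cells was 3.3 points for Serpinb9b and 16.2 for Serpinb6b. With lineages from at least 2 UMIs, the CD8+ to Tconv ratio was 1.46 for Serpinb6b and 2.01 for Serpina3f, and the Treg to Tconv ratio was 0.416 for Serpinb9, 1.29 for Serpinb6a, 0.409 for Serpinb6b, 2.60 for Serpina3g and 3.88 for Serpina3f. Without thinning, the share difference in CD8+ cells was 12.4 points for Serpinb9, 4.45 for Serpinb9b, 10.3 for Serpinb6a, 20.1 for Serpinb6b and 9.82 for Serpina3g, and in Treg cells 3.61 for Serpinb6b and 4.46 for Serpina3g. A mitochondrial limit of 10% gave -1.09 points for Serpinb6a in Treg cells, against 2.07. Leaving out doublets, with another random draw, gave 1.38 points for Serpinb9, against -0.457, and 4.28 for Serpina3g in Treg cells. CPM computed per cell and then averaged gave a CD8+ to Tconv ratio of 1.15 for Serpinb6a, and thinned UMIs per cell a Treg to Tconv ratio of 1.97 for Serpinb6a and no value for Serpinb9b. Leaving out the 5 CD8+ cells richest in Serpinb9b, chosen after seeing the data, gave a CD8+ to Tconv ratio of 6.85. The causes were not tested. No paired analysis was possible because the replicate label is shared only by libraries of different kinds from 1 pool. One library, 1 draw of thinned UMIs and 939 cells with a tumor limit the precision.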
